A study of Mus musculus with 4 samples.

Results

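The homeobox factors described here are the protein-coding genes of the Nkx, Lhx, Dlx, Irx, Gsx, Msx, Emx, Otx, Barx, Barhl, Meox, Prrx, Alx, En, Cdx and Vax families, chosen by their GENCODE symbols with no Hox gene among them. They number 61 of the 21755 protein-coding genes annotated on autosomes and the X chromosome. H3K4me3, the histone mark of promoters, was profiled by chromatin immunoprecipitation sequencing in whole gastrocnemius, a fast calf muscle, of female B6CASTF1/J mice aged 2 months. These animals are first-generation hybrids of C57BL/6J and CAST/EiJ, and the parental alleles were not separated on mm10, the C57BL/6J reference. Pool E (biological replicate 1) and pool F (biological replicate 2) each combined 2 gastrocnemius biosamples and gave 2 technical libraries with fragments of 200 to 600 bp. The deposited peak lists describe pool E, pool F, and both pools together as a replicated list, so no group was treated or mutated, each pool had a single list, and no error per library could be given.

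Homeobox factors bind DNA through the homeodomain, and the families studied here lay out body regions in the embryo: brain and neural tube territories, gut segments, craniofacial and limb mesenchyme, and heart chambers. H3K4me3 is deposited around transcription start sites (TSSs), mostly where the DNA is rich in CpG, and in tissues that do not use a developmental gene its promoter often carries a weak mark together with Polycomb repression. Wide H3K4me3 domains are known to mark genes of cell identity. In muscle, Meox2 acts in limb muscle formation, Barx2 in muscle stem cells, and Prrx1 in the connective tissue progenitors between fibres.

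A member was called marked if any of its annotated TSSs had a peak no farther than 1000 bp away. Its signal value is the highest deposited value among those peaks, a unit of the authors that was compared only within a list. Its domain width is that of the widest domain there, with peaks up to 1000 bp apart joined. Since whole tissue was used, fewer cells that carry the mark and less mark in each cell cannot be told apart.

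In the replicated list 50 of the 61 members (82.0%) were marked, against 69.3% of all protein-coding genes. The mark at these members was weak: their median signal value was 18.5 (interquartile range 12.0 to 28.2), against 45.3 (31.9 to 54.7) for the 15017 other marked genes. Their median domain width was 2054 bp (1497 to 4124), against 2401 bp (1736 to 3533) for the other genes. The highest signal values lay at En1, Irx5, Msx1, Meox2, Otx1 and Prrx1 and the widest domains at Meox2, En1, Irx5 and Prrx1, and the Cdx genes of the intestine had none.

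The promoters of 5 members are shown as examples of wide, intermediate, weak and absent marks. Of the 61 members, 41 matched the RefSeq promoter table of GRCm38.p6, which gives windows of 300 bp, 250 before and 50 after a start. In the lines that follow, each CpG is in capitals. Meox2 and Prrx1 were chosen as wide domains of limb mesenchyme factors in the low CpG class, which is defined below by a ratio over 1000 bp and not by these windows. Barhl2 was chosen as a neural factor with a CpG island, Barx1 as the weaker end of the marked genes despite its CpG content, and Cdx4 as a gut factor without a peak.
Meox2: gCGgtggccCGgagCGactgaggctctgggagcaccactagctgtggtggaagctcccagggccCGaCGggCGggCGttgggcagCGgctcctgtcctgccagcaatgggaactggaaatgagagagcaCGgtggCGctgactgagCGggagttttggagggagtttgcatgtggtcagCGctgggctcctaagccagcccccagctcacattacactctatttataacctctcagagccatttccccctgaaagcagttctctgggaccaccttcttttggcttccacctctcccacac
Prrx1: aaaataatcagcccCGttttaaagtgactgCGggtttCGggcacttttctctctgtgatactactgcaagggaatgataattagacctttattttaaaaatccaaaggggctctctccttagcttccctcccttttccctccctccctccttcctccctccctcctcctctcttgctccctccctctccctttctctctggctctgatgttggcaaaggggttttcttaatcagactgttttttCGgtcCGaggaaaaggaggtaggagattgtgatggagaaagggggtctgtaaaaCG
Barhl2: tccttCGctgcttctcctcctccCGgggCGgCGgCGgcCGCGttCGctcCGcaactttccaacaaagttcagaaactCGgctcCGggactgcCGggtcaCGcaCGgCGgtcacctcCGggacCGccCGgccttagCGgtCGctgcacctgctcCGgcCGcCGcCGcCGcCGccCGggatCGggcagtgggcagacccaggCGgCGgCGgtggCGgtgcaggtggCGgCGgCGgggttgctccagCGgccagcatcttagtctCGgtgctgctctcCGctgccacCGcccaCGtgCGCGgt
Barx1: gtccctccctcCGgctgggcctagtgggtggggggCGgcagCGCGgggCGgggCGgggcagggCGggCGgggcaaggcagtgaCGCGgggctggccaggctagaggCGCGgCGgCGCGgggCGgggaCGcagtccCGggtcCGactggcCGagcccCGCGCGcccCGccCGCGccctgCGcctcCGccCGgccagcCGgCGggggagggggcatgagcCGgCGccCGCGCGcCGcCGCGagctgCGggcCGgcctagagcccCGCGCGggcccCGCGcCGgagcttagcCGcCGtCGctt
Cdx4: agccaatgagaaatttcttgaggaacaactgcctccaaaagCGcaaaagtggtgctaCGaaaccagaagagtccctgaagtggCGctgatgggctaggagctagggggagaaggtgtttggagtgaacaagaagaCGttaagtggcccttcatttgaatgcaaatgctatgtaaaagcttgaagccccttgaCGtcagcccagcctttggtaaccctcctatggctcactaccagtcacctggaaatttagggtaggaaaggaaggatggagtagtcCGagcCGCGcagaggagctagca
The Meox2 window (chr12:37108290-37108589, plus strand) held 12 CpGs and the Prrx1 window (chr1:163313601-163313900, minus strand) held 6, and all 300 bases of both lay under a peak. The Barhl2 window (chr5:106458117-106458416, minus strand) held 42 CpGs, and all of it was also under a peak. The Barx1 window (chr13:48662786-48663085, plus strand) held 50 CpGs, the most of any member window, but only its last 42 bases lay under a peak. The Cdx4 window (chrX:103321148-103321447, plus strand) held 8 CpGs and no base under a peak. The number of CpGs thus did not follow the order of the signal values among these 5 genes.

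Across the 49 windows of the matched members, the median number of CpGs was 19 (range 4 to 50), against 7.00 in 32851 windows of 27025 genes in the table. That gene set differs from the 21755 protein-coding genes used elsewhere. The 34 windows of 27 neural or gut factors had a median of 17.0 and the 8 windows of 8 limb mesenchyme factors 18.0. The homeodomain core TAATTA, which reads the same on both strands, occurred in 6 of the 49 windows (12.2%), against 5.29% of all windows in the table. The TATA motif TATAAA, searched on both strands, occurred in 6 (12.2%), against 13.6% of all windows. A match describes the letters and is not a binding site.

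The members were sorted by the embryonic territory for which each is best known, as background: 26 neural, 8 gut, 15 limb mesenchyme and 12 other or mixed factors. Several act in further territories, so the contrast of classes depends on this assignment. The limb mesenchyme class also holds factors of face, somites and axial cartilage, and the gut class also holds factors of lung, thyroid, pharynx and heart. Of the neural factors 23 (88.5%) were marked in the replicated list, of the gut factors 2 of 8, of the limb mesenchyme factors all 15, and of the other or mixed factors 10 (83.3%). Neural and gut factors together gave 25 of 34 (73.5%), against 69.3% of all protein-coding genes.

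By signal value, the 25 marked neural or gut factors had a median of 18.1 (interquartile range 11.8 to 23.1, range 5.55 to 47.5) and the 15 limb mesenchyme factors 21.4 (12.2 to 35.6, range 7.16 to 49.0). The difference of medians was -3.33, less than 4.05, the SD of this difference between the lists of pools E and F. By width, neural or gut factors had a median of 2440 bp (1617 to 4099, range 440 to 4678) and limb mesenchyme factors 1890 bp (1320 to 4319, range 934 to 19660). That difference of 550 bp changed sign when peaks up to 2500 bp apart were joined (-1951 bp) or when only the 9 factors best known in limb buds were kept (-573 bp). The classes therefore overlapped in both measures. At the upper end, 3 limb mesenchyme factors passed the median signal value of all marked genes (45.2), against 1 neural factor. Domains of 5 kb or more occurred at 4 limb mesenchyme factors and at no neural or gut factor in the replicated list, against 12.4% of other marked genes. In pool E there were 4 such limb mesenchyme factors, with Irx3 in place of Meox1, and in pool F 3, without either gene. In the replicated list their share was 26.7%. It was larger at Hox genes (42.1%), at Pitx, T-box and Lbx1 genes (46.7%) and at sine oculis homeobox, Eya and Dach genes (54.5%). These small counts were not tested.

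**Figure D1:**
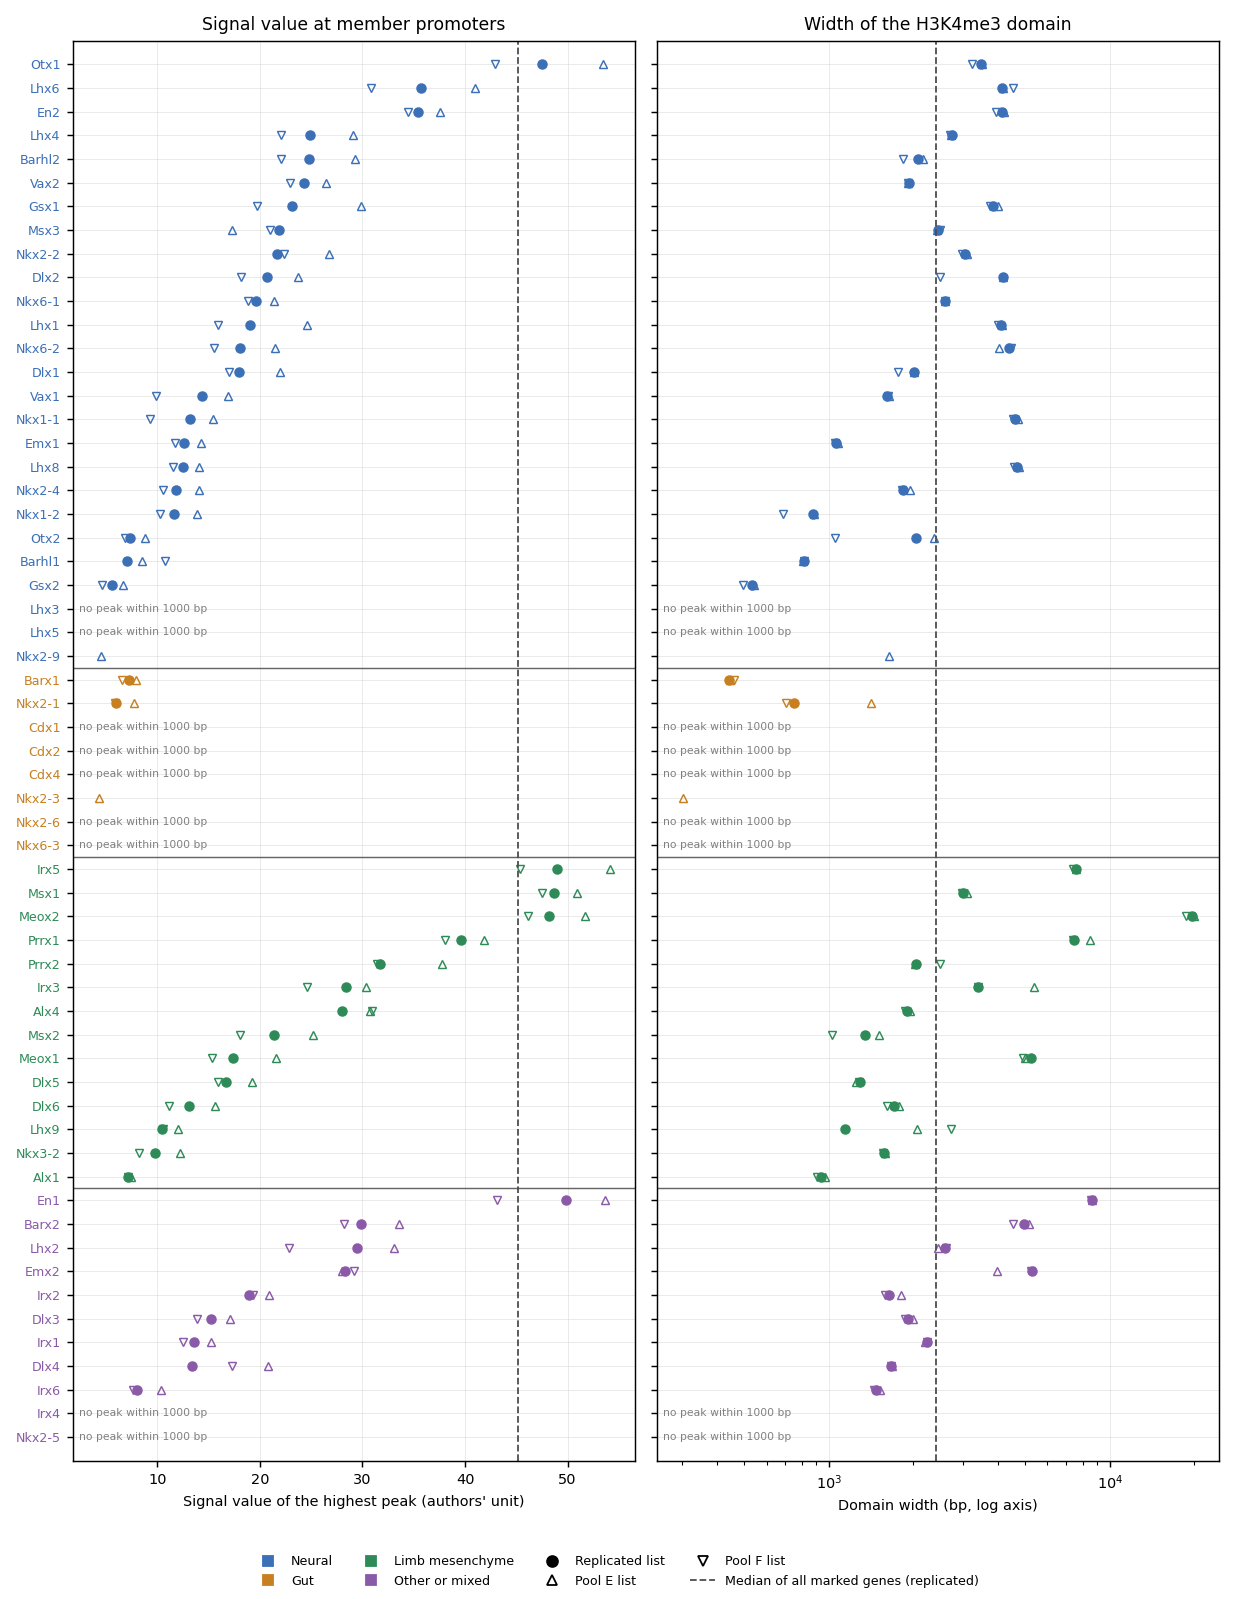
Signal value (left) and domain width in bp on a log axis (right) of 59 of the members, grouped by class, in the replicated list (filled circles), pool E (upward triangles) and pool F (downward triangles). Dashed lines are the medians of all marked genes in the replicated list, 45.2 and 2400 bp; 5 members lie above the signal line, and 6 of the 8 gut factors have no peak within 1000 bp of a TSS in the replicated list.

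Meox2, a mesoderm factor needed for limb muscle in mice, carried the widest domain of all members. It measured 19910 bp in pool E, 18611 bp in pool F and 19660 bp in the replicated list (chr12:37101402-37121061), at percentile 99.8 of all marked genes by width. Its signal values were 51.7, 46.1 and 48.2 in those 3 lists. The domain joined 4 peaks, and 63.7% of it lay within the gene and 59.6% in introns, and its promoter window sits inside it. Meox1, its somite paralog, had signal values of 21.6 in pool E, 15.3 in pool F and 17.4 in the replicated list. Its domain was nonetheless wide, at 4971, 4925 and 5232 bp in the same lists (chr11:101889648-101894879).

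Prrx1, which drives limb and craniofacial mesenchyme and is used as a mark of connective tissue progenitors, had signal values of 41.8 in pool E, 38.0 in pool F and 39.6 in the replicated list. Its domain measured 8500, 7379 and 7464 bp (chr1:163307815-163315278), with 61.4% of it intronic. Prrx2, its partner in skeletal patterning, had signal values of 37.8, 31.4 and 31.7. Its domain of 2030, 2485 and 2037 bp (chr2:30844991-30847027) lay at a TSS inside the gene, and the first annotated TSS was 6255 bp from any peak. Both genes were thus marked at similar height, and the Prrx1 domain was several times as wide.

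Irx5, a patterning factor of limb and heart, had signal values of 54.1 in pool E, 45.4 in pool F and 49.0 in the replicated list. Its domain measured 7554, 7408 and 7549 bp (chr8:92353375-92360923). Msx1, which keeps limb bud and craniofacial mesenchyme undifferentiated, had 50.9, 47.5 and 48.7 and a domain of 3101, 2969 and 3013 bp (chr5:37822019-37825031). Msx2, its close paralog, had 25.2, 18.1 and 21.4 and a domain of 1508, 1027 and 1345 bp. Irx5 was the highest of the limb mesenchyme class in pool E and in the replicated list, and Msx1 in pool F.

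Irx3 acts with Irx5 in the limb bud and had signal values of 30.3 in pool E, 24.6 in pool F and 28.4 in the replicated list. Its domain was 5382 bp in pool E, 3389 bp in pool F and 3406 bp in the replicated list (chr8:91799431-91802836), and the start of the antisense gene Irx3os lies within 1000 bp, so the peak cannot be assigned to Irx3 alone. Alx4, a factor of the anterior limb and skull, had 30.7, 30.9 and 28.0 and a domain of 1940, 1859 and 1890 bp.

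Other limb mesenchyme factors were weakly marked. Dlx5 and Dlx6 (limb and jaw skeleton), Alx1 (face), Lhx9 (limb bud and gonad) and Nkx3-2 (axial cartilage) had signal values between 7.16 for Alx1 and 16.7 for Dlx5 in the replicated list. Their domains ran from 934 bp at Alx1 to 1709 bp at Dlx6. Not all limb mesenchyme factors were therefore strongly marked, and the low end of the class lay among the weaker neural factors.

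Among neural factors Otx1, a forebrain and sense organ factor, had the highest signal value: 53.4 in pool E, 42.9 in pool F and 47.5 in the replicated list. Its domain measured 3515, 3237 and 3479 bp (chr11:22000538-22004016) and lay over its start. No other neural factor reached the median of all marked genes in the replicated list.

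Lhx6, a factor of cortical interneurons, had 41.0 in pool E, 30.8 in pool F and 35.7 in the replicated list, and a domain of 4156, 4526 and 4133 bp (chr2:36101783-36105915). En2, a midbrain and cerebellum factor, had 37.6, 34.4 and 35.4 and a domain of 4211, 3934 and 4138 bp (chr5:28164946-28169083). In signal value these neural genes came close to the limb mesenchyme factor Prrx2, and their domains were wider than that of Prrx2 in each list.

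Lhx4, a pituitary and motor neuron factor, had 29.1 in pool E, 22.1 in pool F and 24.9 in the replicated list, with a domain of 2731, 2703 and 2745 bp that was 91.8% intronic (chr1:155740679-155743423). Its first annotated TSS lay 7524 bp from any peak. Barhl2, a factor of spinal and retinal neurons, had 29.3, 22.1 and 24.8 and a domain of 2163, 1834 and 2071 bp (chr5:106457413-106459483). Vax2 (ventral retina), Gsx1 (forebrain progenitors) and Msx3 (dorsal neural tube) followed in the replicated list with 24.3, 23.1 and 21.9.

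Some of the widest neural domains lay at promoters of low signal value. Lhx8, a factor of basal forebrain cholinergic neurons, had the widest, 4745 bp in pool E, 4563 bp in pool F and 4678 bp in the replicated list (chr3:154328062-154332739). Its signal values were 14.1, 11.5 and 12.5, and the domain joined 3 peaks near the start of the noncoding gene AI606473. Nkx1-1, expressed in the developing nervous system, had signal values of 15.4, 9.27 and 13.2.

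The Nkx1-1 domain of 4696, 4532 and 4586 bp (chr5:33430524-33435109) covered the whole gene of 3243 bp. Nkx6-2, an oligodendrocyte and spinal cord factor, had signal values of 21.5 in pool E, 15.5 in pool F and 18.1 in the replicated list. Its domain of 4022, 4446 and 4392 bp (chr7:139581329-139585720) lay mostly upstream, with 66.6% outside the gene. Dlx2 and En2 complete the 5 widest.

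Such weak and wide promoters, under the all-gene median in signal value and above it in width, made up 12 of the 23 marked neural factors (52.2%). They made up 3 of the 15 limb mesenchyme factors and 18 of the 50 marked members (36.0%), against 2903 of the 15017 other marked genes (19.3%). Most members were under the signal median, and among the genes under it 18 of 45 members (40.0%) were wide, against 38.8% of 7484 other genes, so the members' share was near the background. Of the high CpG genes under the signal median, 10 of 16 neural factors (62.5%) were wide, against 52.3% of other genes. Besides those named above, the neural factors Nkx6-1 (ventral neural tube), Lhx1 (motor and Purkinje neurons) and Dlx1 had signal values from 18.0 to 19.6, and Vax1 (optic stalk), Emx1 (cortex), Nkx2-4 (hypothalamus) and Nkx1-2 (posterior neural plate) from 11.6 to 14.4.

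The weakest marked neural factors were Otx2, Barhl1 and Gsx2. Otx2, a head and eye factor, had signal values of 8.77 in pool E, 6.88 in pool F and 7.35 in the replicated list, and its peak lay 7252 bp from the first annotated TSS. Barhl1, a factor of cerebellar granule cells and hair cells, had 8.51, 10.8 and 7.10, with its peak wholly outside the gene and 880 bp from the nearest TSS, the farthest of any marked member. Gsx2, a forebrain progenitor factor, had 6.64, 4.66 and 5.55 and a peak 156 bp from its TSS. Barhl1 and Gsx2, with Barx1, were the 3 marked members without a peak over a TSS: 47 of 50 (94.0%) had one, against 96.8% of the other marked genes, and 67.0% of all protein-coding genes had one.

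**Figure D2:**
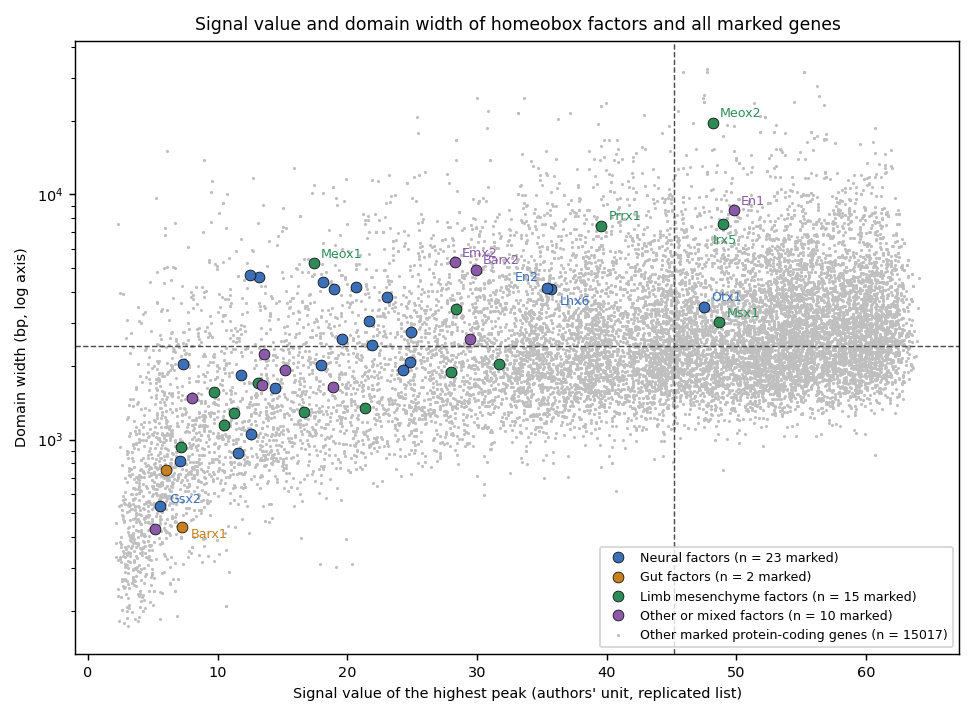
Domain width in bp (log axis) against signal value in the replicated list for the 50 marked members, colored by class, over 15017 other marked protein-coding genes (grey). Dashed lines are the medians of all marked genes; 18 members lie to the left of and above them, Meox2, En1, Irx5, Msx1 and Otx1 lie to the right of and above both, and the gut factors Barx1 and Nkx2-1 lie at the lower left.

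Width was also read within bands of signal value. Among genes with a value of 30 to 50, the 9 members had a median width of 4138 bp, against 2448 bp for 5670 other genes. From 20 to 30 the 13 members had 2745 bp, against 2060 bp for 1293 other genes. From 10 to 20 the 19 members had 1833 bp, against 1374 bp for 1004 other genes, and below 10 the 9 members had 819 bp, against 758 bp for 1126 other genes. The median over all members was thus above that of the other genes in each band, with no test made. Limb mesenchyme factors went the other way in the middle bands, with 1294 bp for 5 factors from 10 to 20 and 1890 bp for 3 from 20 to 30. Below 10 the members' median was also under the 999 bp of 79 other high CpG genes.

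Gut factors were the class with the fewest marks, 2 of 8, against 69.3% of all protein-coding genes. By the CpG classes defined below, 2 of the 3 high CpG gut factors were marked, against 99.3% of all genes in that class. The 2 of intermediate and the 3 of low CpG were unmarked, against 93.9% and 25.2% marked among all genes. Barx1, a stomach mesenchyme factor, had signal values of 7.92 in pool E, 6.53 in pool F and 7.26 in the replicated list, and a peak of 444, 460 and 440 bp (chr13:48663044-48663483) that began 46 bp from its TSS. Nkx2-1, the lung, thyroid and ventral forebrain factor, had 7.71, 5.85 and 6.02. Its domain measured 705 bp in pool F and 750 bp in the replicated list (chr12:56534626-56535375), where its peak lay 1533 bp from the first annotated TSS. In pool E a peak of 716 bp was joined with a further peak into a domain of 1413 bp, which reached closer to that TSS. The antisense gene Gm26973 starts within 1000 bp of an Nkx2-1 TSS.

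The other gut factors had no peak within 1000 bp in the replicated list. Cdx1, Cdx2 and Cdx4, which set intestinal and posterior identity, had their nearest peaks 7887, 7414 and 34672 bp away, all outside the genes. The Cdx1 neighbor was the promoter of Pdgfrb and the Cdx4 neighbor that of Chic1, while the peak nearest to Cdx2 had a signal value of 3.46. Nkx6-3, a stomach factor, had its nearest peak 2835 bp away, near the start of Gm15816.

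Nkx2-6, a pharyngeal and heart factor, had no promoter peak but a peak within the gene, 2534 bp from its TSS, with a signal value of 21.8 in pool E, 18.3 in pool F and 18.1 in the replicated list. Nkx2-3, which acts in gut mesenchyme and spleen, had a peak in the gene 1928 bp from its TSS, at 13.5 in the replicated list. In pool E a further peak of 302 bp with a signal value of 4.29 lay 407 bp from the TSS. Nkx2-3 was thus marked in pool E and in neither pool F nor the replicated list.

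Unmarked neural factors were Lhx3, Lhx5 and Nkx2-9. Lhx3, the pituitary and motor neuron partner of Lhx4, had its nearest peak 28116 bp away at Qsox2. Lhx5, a forebrain factor, had one inside the gene, 4174 bp from its TSS, at 8.77 in pool E, 8.75 in pool F and 8.11 in the replicated list. Nkx2-9, a ventral neural tube factor, lay just outside the threshold, with a peak 1055 bp from its TSS and a signal value of 3.84 in the replicated list. In pool E a peak with a signal value of 4.50 lay over its TSS, in a domain of 1640 bp.

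The unmarked members of the other or mixed class were the heart factors Nkx2-5 and Irx4. Nkx2-5 had a peak of signal value 4.31 inside the gene, 1754 bp from its TSS. Irx4, a ventricle factor, had one of 3.93 inside the gene, 2184 bp away. Of the 11 unmarked members, 6 thus had their nearest peak overlapping the gene body. The share of all unmarked protein-coding genes with such a peak was not computed, so this count is only a description. Of these peaks, those in Nkx2-6 and Nkx2-3 exceeded 10 in signal value.

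**Figure D3:**
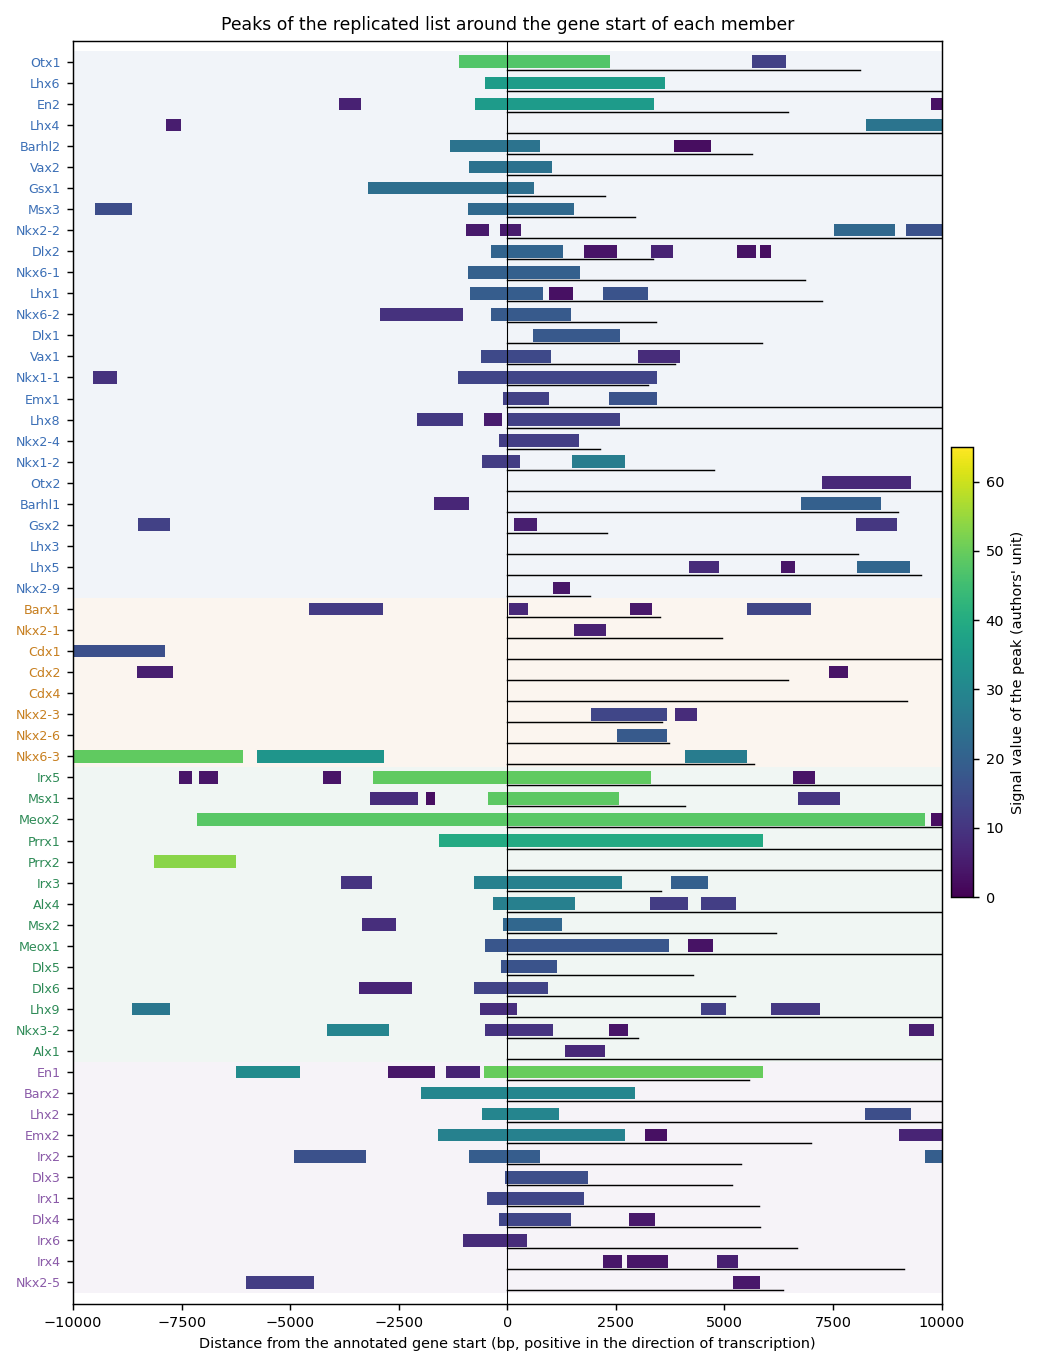
Peaks of the replicated list within 10 kb of the annotated gene start of the same 59 members, with distance in bp on the horizontal axis, positive in the direction of transcription, and color for the signal value; black lines mark the gene, cut at 10 kb. The Meox2 domain of 19660 bp spreads on both sides of the start, the peaks nearest to the starts of Prrx2 and Otx2 lie away from them, and Nkx2-6 and Lhx5 show peaks within the gene only.

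Among factors of other or mixed territories En1 had the highest signal value in each list, and in the replicated list the highest of all members. En1, which acts in midbrain, ventral limb ectoderm and dermal fibroblast precursors, had 53.6 in pool E, 43.1 in pool F and 49.8 in the replicated list. Its domain of 8652, 8576 and 8624 bp (chr1:120599676-120608299) covered the whole gene of 5575 bp. En1 and the neural En2 thus both carried wide domains, though the En2 domain covered 52.4% of its gene and not all of it.

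Barx2, a regulator of muscle stem cells, had signal values of 33.6 in pool E, 28.2 in pool F and 29.9 in the replicated list, and a domain of 5156, 4538 and 4938 bp (chr9:31910523-31915460). Emx2, a factor of cortex, urogenital tract and scapula, had 28.0, 29.2 and 28.3 and a domain of 3962, 5256 and 5293 bp (chr19:59456768-59462060). The antisense gene Emx2os starts within 1000 bp of an Emx2 TSS. Lhx2, a factor of eye, forebrain and limb bud, had 33.1, 22.8 and 29.5 at a peak that measured 1776 bp in the replicated list (chr2:38338690-38340465). Its widest domain, of 2449, 2605 and 2584 bp (chr2:38350257-38352840), lay at another TSS inside the gene. Barx2 and its gut paralog Barx1 stood far apart in both measures in each list.

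Paralogs that neighbor each other were read side by side, since they share a locus. Dlx1 and Dlx2, which specify forebrain interneurons, lie 9427 bp apart on chromosome 2. Dlx1 had signal values of 22.0 in pool E, 17.0 in pool F and 18.0 in the replicated list, and a domain of 2002, 1758 and 2006 bp (chr2:71528712-71530717) near the start of Dlx1as. Dlx2 had 23.7, 18.2 and 20.7 and a domain of 4167, 2488 and 4182 bp (chr2:71542942-71547123), which spanned its gene in pool E and in the replicated list and not in pool F. The pair was alike in height and differed in width.

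Dlx5 and Dlx6, 9237 bp apart on chromosome 6, had signal values of 19.2 and 15.6 in pool E, 15.9 and 11.1 in pool F, and 16.7 and 13.1 in the replicated list. Dlx3 and Dlx4, factors of skin, teeth and placenta, lie 15151 bp apart on chromosome 11. They had 17.1 and 20.8 in pool E, 13.9 and 17.3 in pool F, and 15.2 and 13.4 in the replicated list, so their order differed between lists. All 6 Dlx genes were marked within a narrow range, 13.1 to 20.7 in the replicated list, whether their territory was brain, limb or skin.

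Irx3, Irx5 and Irx6 on chromosome 8 were graded, from 49.0 at Irx5 and 28.4 at Irx3 to 7.99 at Irx6, a retinal factor, in the replicated list. Irx6 had 10.4 in pool E and 7.66 in pool F. Irx1, Irx2 and Irx4 on chromosome 13 gave 13.6, 18.9 and no promoter peak. Irx1, active in digits and lung, had 15.2 in pool E and 12.5 in pool F with a domain of 2204 and 2239 bp, and Irx2, its neighbor, had 20.9 and 19.3 with 1805 and 1588 bp. The limb genes Irx3 and Irx5 were the highest of the 6 in each list.

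Nkx2-4 and Nkx2-2, a factor of ventral neural progenitors and pancreas, lie 92101 bp apart on chromosome 2. Nkx2-4 had signal values of 14.1 in pool E, 10.6 in pool F and 11.8 in the replicated list, and Nkx2-2 had 26.7, 22.4 and 21.7 with a domain of 3106, 2974 and 3042 bp (chr2:147183680-147186721). Nkx2-1 and Nkx2-9, 74481 bp apart on chromosome 12, were a weak mark and a peak just outside the threshold. None of the neighboring members within 100 kb of each other shared a domain.

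CpG content of the TSS windows was set beside the marks. In the high CpG class (a CpG observed/expected ratio from 0.75 up, with 55% GC or more, in 1000 bp) 28 of 31 members (90.3%) were marked, against 99.3% of all genes in that class. In the intermediate class 19 of 24 (79.2%) were marked, against 93.9%. In the low class (a ratio under 0.48) 3 of 6 were marked, against 25.2%. The marked low CpG members were Meox1, Meox2 and Prrx1, all of limb mesenchyme, and the unmarked ones were the gut factors Cdx4, Nkx2-6 and Nkx6-3.

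At high CpG the members' median signal value was 18.5, against 51.6 for the other marked genes of that class, and their domains had a median of 2340 bp, against 2794 bp. At intermediate CpG they had 15.2, against 43.7, and 1566 bp, against 2109 bp. The 3 low CpG members had medians of 39.6, against 18.5, and 7464 bp, against 1730 bp. The members' medians were thus lower than those of other genes in the CpG-rich classes. The medians of the 3 CpG-poor members were higher, though the signal value of Meox1, 17.4, was under 18.5.

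**Figure D4:**
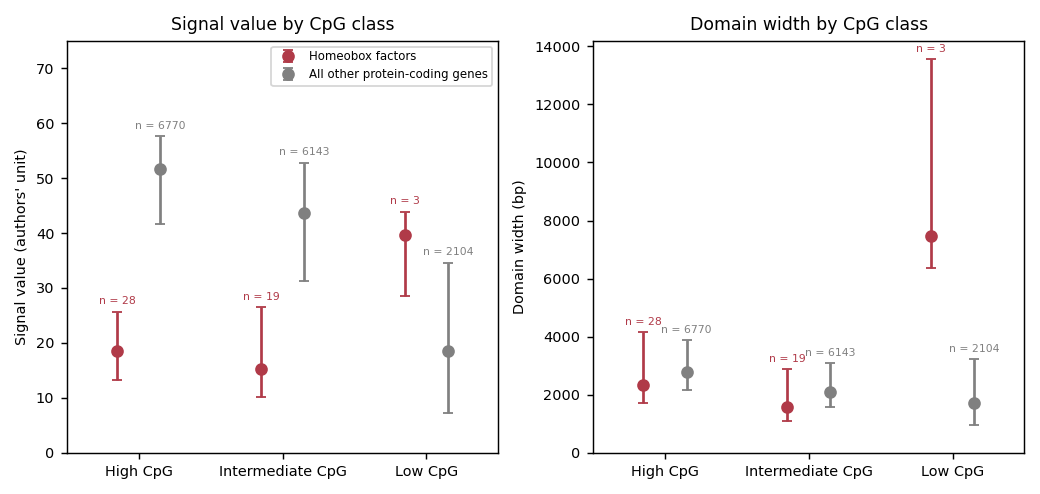
Median signal value (left) and median domain width in bp (right) of marked members (red) and all other marked protein-coding genes (grey) in 3 CpG classes, with bars from the lower to the upper quartile and the number of genes above each. At high CpG the members' median signal value is 18.5, against 51.6 for other genes, and at low CpG 39.6, against 18.5.

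Position around the TSS was read at members and at the other marked genes. The mark covered a median of 838 bp upstream and 1622 bp downstream of the start at members, against 724 and 1478 bp at other marked genes. In the replicated list the domain spanned the whole gene at 3 members (Dlx2, Nkx1-1 and En1; 6%), against 3.02% of other genes. Members are short, with a median length of 6332 bp, against 24785 bp, and among genes up to 10 kb the share was 9.38%, against 12.2%. Another gene's TSS lay within 1000 bp of a TSS at 11 of 50 marked members (22.0%), against 35.1%. At these 11 genes (Vax2, Lhx1, Dlx1, Lhx8, Otx2, Nkx2-1, Irx3, Alx1, Emx2, Irx2 and Dlx4) no neighbor was annotated as protein-coding. The peaks there cannot be assigned to either gene.

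The members were also counted in each pool's own list. In pool E 52 members were marked, against 69.3% of all genes, and in pool F 50, against 68.9%. Both pools marked 50 members and neither marked 9. Marked in pool E and not in pool F were 2 members, Nkx2-3 and Nkx2-9, against 0.625% of all genes, and no member was marked in pool F alone, against 0.248%. The pooled list marked 52 members, against 69.5% of all genes.

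Across the 50 members marked in both pools, Spearman's rho between the pools was 0.961 for signal value and 0.946 for width, as a description across genes of lists that share an input. The width ratio of pool E over pool F had a median of 1.04 and a range of 0.754 to 2.25. It passed 1.5 either way at 5 of 50 members, against 4.42% of all genes marked in both pools, among them Otx2 (pool E 2362 bp, pool F 1051 bp), Nkx2-1, Dlx2 and Irx3. At each of the 5 genes the wider domain was the one of pool E, and over all genes marked in both pools the median ratio was 1.05.

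The setting of the tissue was read from marker promoters. All 8 skeletal muscle fibre genes were marked (median width 9570 bp), as were 6 of 6 fibroblast genes (11492 bp), 4 of 7 neuron genes (1184 bp), 1 of 6 gut epithelium genes (Lgr5), 2 of 5 skin epithelium genes and 4 of 5 Schwann cell genes. The neuron genes Gad1, Slc17a6 and Snap25 were unmarked in the replicated list. Of all protein-coding genes 69.3% were marked, and of the low CpG class 25.2%. That class held all the skin genes and the gut genes other than Lgr5. The part of any cell type in the marks at members was not tested.

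Cofactors with which homeodomain proteins act (the Pbx, Meis, Pknox, Tgif, Ldb, Lmo and Tle genes) were all marked, 21 of 21, at medians of 46.2 for signal value and 4742 bp for width. For these and the families below, the share over all protein-coding genes was 69.3%. All cofactors but Ldb2 and Lmo3 were of high or intermediate CpG, where 99.3% and 93.9% of all genes were marked. The cofactors' share was thus near that background. The LIM cofactor Ldb1, the corepressor Tle4 and the TALE factors Tgif1 and Pknox1 had 59.8, 57, 56.6 and 56.5 in the replicated list, and Lmo3 was the lowest with 6.31. Of other developmental families, 38 of 39 Hox genes were marked, with a median signal value of 32.5 and width of 3732 bp. For sine oculis homeobox, Eya and Dach genes these were 11 of 12, 45.1 and 5468 bp, and for Pitx, T-box and Lbx1 genes 15 of 17, 31.3 and 3961 bp. The homeobox factors' medians of 18.5 and 2054 bp were the lowest of these groups, with no test made.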

How the data were processed

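Per the labels, 4 libraries of 2 pools were sequenced. Per the deposited text files, the authors called peaks on the pool E alignment, on the pool F alignment and on their union, each with a further undescribed input. The deposited narrowPeak lists on mm10 give a signal value per peak, whose reference is not stated, and a −log10 q-value. The aligner, the caller and the options of both are not given in the sources used here. Lists hold no read counts, so depth is unknown.

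TSSs came from GENCODE M21 and sequence from the RefSeq assembly GRCm38.p6, the build of mm10. Genes were marked by peaks within 1000 bp of a TSS, and peaks up to 1000 bp apart were joined with Python 3.11.15. These measures were checked on simulated data. Full values were given for up to 5 members per class by signal value and by width, for unmarked members and for clusters, with coordinates from the replicated list. The members, classes and lists were chosen with earlier results of these data known. Alternatives covered the TSS window, joining gap, q-value, TSS set, list, classes and pools. Values of 2 members are not reported here by name, though counts and medians include them.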

Additional observations from a re-analysis of the deposited data

How the results depend on the processing

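Counts of marked members stayed within 1.5 times under all 7 alternatives (47 with peaks over a TSS, 54 within 2500 bp), except gut factors, of which 1 had a peak over a TSS. The joining gap does not enter the signal value, so its alternatives could not change a signal difference. With these included, the signal difference (neural or gut minus limb mesenchyme, -3.33) never changed sign in 15 alternatives. It was -13.6 against limb bud factors alone, -14.8 for gut factors alone, -8.89 with unmarked members at 0 (chosen after seeing the data), and -7.95 to -2.22 without either pool. The width difference (550 bp) kept to its spread in 6 of 15, among them a mean signal value weighted by width, which does not enter the domain width. It was -1951 bp with peaks up to 2500 bp apart joined, -573 bp against limb bud factors, -1295 bp for gut factors and -10.0 bp with unmarked members at 0. It was 181 bp at −log10 q of at least 2, 34.0 bp in the pooled list, 37.0 bp without joining, and 3 to 323 bp without either pool. The cause was not tested. No paired analysis was possible because the lists hold no value per library. Unknown depth limits statements on unmarked members.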
